A study of Danio rerio with 4 samples.

Results

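The Rab GTPases of membrane traffic were taken as the rows whose symbol was rab followed by a number and optional letters, without the interacting and GTPase-activating proteins. The rule found 72 of the 29027 rows of the deposited tables. Of these, 71 are Rab GTPases. The row rab3il1 also matched, but its product is an exchange factor that activates Rabs, and it is counted apart below where Rab GTPases are named. Rows named RAB35_(2_of_2), RAB27A_(2_of_2) and RAB42_(1_of_3) to RAB42_(3_of_3) did not match the rule and are not counted as members. In the RefSeq gene table, rab1a is a synonym of rab1ab and rab7 a synonym of rab7a, and the names of the deposited tables are kept here. Reads shared by near-identical paralogues may have been divided between them, so the split within a family is less certain than its sum.

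Rab GTPases are small membrane-bound switches that cycle between a GDP-bound and a GTP-bound form and mark the identity of transport vesicles and organelles. Each Rab recruits its own tethers, motors and sorting proteins, so that Rab5 acts on early endosomes, Rab4 and Rab11 in recycling to the surface, Rab7 on late endosomes and Rab1 between the endoplasmic reticulum and the Golgi. In endothelial cells these routes carry receptors, junction proteins such as VE-cadherin, and stored secretory granules.

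Endothelial cells were sorted from the trunk and tail of zebrafish embryos at 47 hours post fertilization (hpf) as cells positive for both Tg(kdrl:EGFP), an endothelial reporter, and Tg(lyve1:DsRed), a venous and lymphatic reporter. The tie1 Homo group was made from homozygous tie1 mutants (tie1-/-) selected for the presence of blood flow, and the tie1 WT/Het group from a mixture of their wild-type and heterozygous siblings (tie1+/?). All groups carried both reporter transgenes, and the labels do not describe the tie1 allele. There were 2 libraries in each group. Nothing in the labels says that these came from separate clutches or sorts, so the p-values cannot be taken to measure the spread between clutches or sorts.

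Expression is given as TPM (transcripts per 1000000), a relative transcript abundance that is scaled by transcript length, so that levels can be compared between genes. The TPM of tie1 was 61.0 and 31.0 in the siblings and 16.7 and 10.2 in the mutants. Both mutant values were below both sibling values. In each library the 95th percentile of 279 sensory receptor and lens crystallin genes, which endothelial cells are not known to use, is called the background limit. It was 4.02 and 6.38 TPM in sibling libraries against 14.3 and 19.0 TPM in mutant ones. For tie1, the value in mutant replicate 2 was under its limit. In the limma comparison described below tie1 was not called (limma adjusted p-value 0.0605). The pan-endothelial markers summed to 5344 and 4831 TPM in the siblings and to 1853 and 638 TPM in the mutants, with 17 and 18 of 19 above the limit against 12 and 10. The venous and lymphatic markers summed to 2913 and 2309 TPM in the siblings and to 1147 and 410 TPM in the mutants, with at least 9 of 10 above the limit in the siblings against 8 and 6. The summed markers also ranged from 4284 to 5157 TPM in the siblings and from 656 to 1874 TPM in the mutants for erythroid cells, from 519.8 to 523.8 and from 121 to 178 TPM for myeloid cells, from 941 to 1610 and from 329 to 852 TPM for epidermal cells, and from 501 to 1330 and from 238 to 398 TPM for skeletal muscle. Their part in the results below was not tested. In bulk samples, fewer cells of a type and less RNA per cell cannot be told apart.

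Of the 71 Rab GTPases, 34 were above the background limit in each sibling library, and 26 (36.6%) were above it in both. Over all rows, 25.2% met this condition. In the mutants 21 Rabs (29.6%) exceeded the limit in replicate 1, beside 16.3% of all rows, and 7 (9.86%) in replicate 2, beside 10.4% of all rows. Of the 26 Rabs above the limit in both sibling libraries, 7 (26.9%) were above it in both mutant libraries, close to the 26.2% found over all genes that met the same condition. These 7 were rab11ba, rab11bb, rab13, rab14, rab1a, rab2a and rab43. A further 9 of the 26 were above it in neither mutant library: rab18a, rab18b, rab1ba, rab35b, rab41, rab5b, rab7, rab8b and rab9a. This was 34.6% of the 26, below the 42.5% found over all genes that met the same condition. No Rab was above the limit in both mutant libraries without being above it in both sibling libraries. The 26 were chosen by their sibling values, and the limits themselves were higher in the mutants. Both make loss likelier than gain, so these counts are given as a description.

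**Figure D1:**
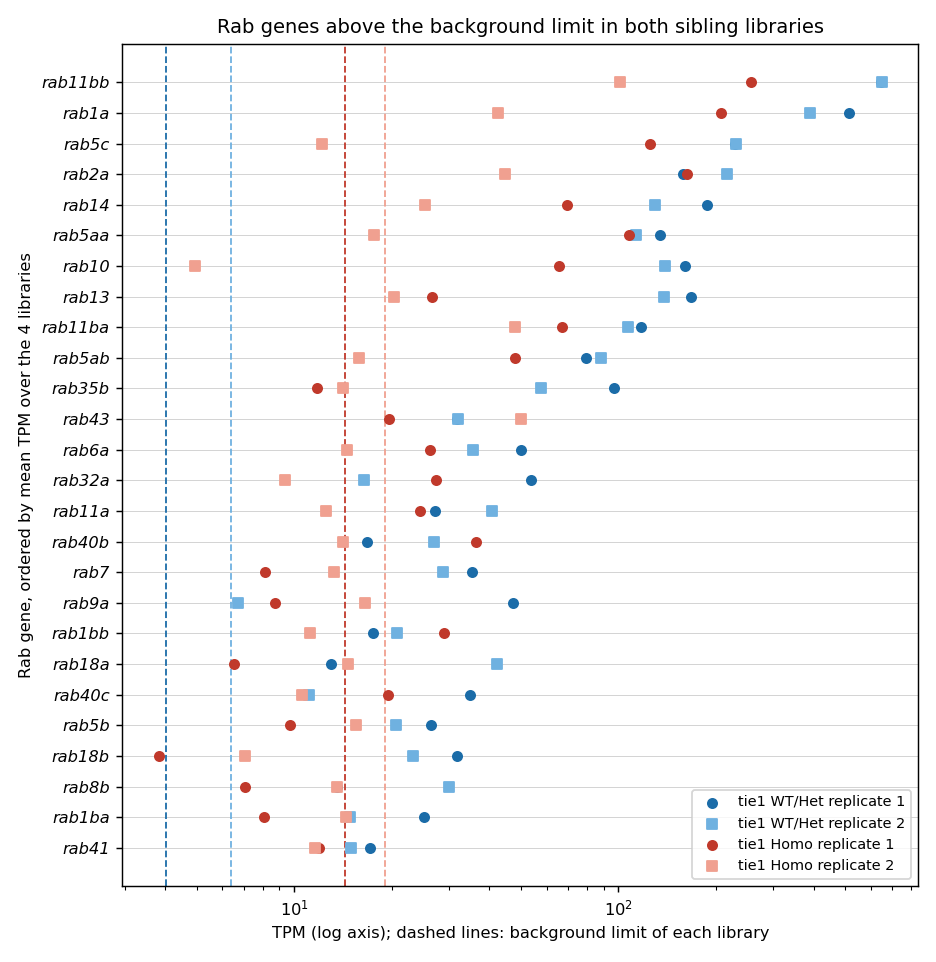
TPM (log axis) of the 26 Rab genes above the background limit in both sibling libraries, with 1 point per library and dashed lines at the limit of each library. The sibling points of rab11bb, rab1a and rab5c lie far to the right of all limits, whereas rab5c and rab10 in mutant replicate 2 lie at 12.2 and 4.95 TPM, left of the limit of 19.0 TPM.

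The summed TPM of the 71 Rabs was 3110 and 2859 in the siblings and 1812 and 1075 in the mutants. As a share of all listed TPM this was 0.382% and 0.388% in the siblings against 0.301% and 0.224% in the mutants. The 10 Rabs with a mean of at least 50 TPM over the 4 libraries made up 76.9% and 77.1% of the Rab TPM in the siblings. They made up 62.7% in mutant replicate 1 and 30.9% in mutant replicate 2. All genes with such a mean also fell as a share of all listed TPM, from 75.5% and 70.7% in the siblings to 56.0% and 35.2% in the mutants. The mutants thus lay below the siblings in each of these sums and shares, and replicate 2 lay lowest. A gene can reach a mean of at least 50 TPM through the siblings alone. The fall in the shares of such genes is therefore partly set by this choice.

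Across all genes, mutants and siblings were compared with limma on log2(TPM + 1), where a gene is called at a Benjamini-Hochberg adjusted p-value under 0.05. Of the 72 members 70 could be tested, since RAB28 and RAB37 were listed at 0 in all 4 libraries. Of these 70, 6 were called lower in the mutants, beside 4.43% of all 28301 genes, and 24 were called higher, beside 44.6% of all genes. As shares of the members these were 8.57% and 34.3%. The other 40 were not called. The median log2 fold change was 0.86 over the members and 1.17 over all genes. In 32 members both mutant values were above both sibling values, beside 65.8% of all genes, and in 17 both were below, beside 12.0%. Such separation came with at least a 2-fold change in 12 members that were lower (9.47% of all genes) and 31 that were higher (57.0% of all genes). The fit took the SE of each gene from the trend of variance on level. Neither an SE nor a p-value thus measures the spread between that gene's own libraries. For a single gene, an exact permutation test of 2 libraries against 2 cannot give a two-sided p-value below 0.333.

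The 6 lower calls were rab13, rab10, rab35b, rab5c, rab18b and rab1a, and each of these genes exceeded the background limit in sibling replicate 1 and in sibling replicate 2. Of the 24 members called higher, none was above the limit in a mutant library, and 21 were at or under it in all 4 libraries. The 3 exceptions, rab3ab, RAB26 and rab6bb, were above it in 1 sibling library. No member was called in either direction after scaling by the median of ratios, by quantile normalization or after background subtraction. No other gene was called in these fits either. After background subtraction only 46 members and 14008 genes passed the filter and were tested. Of 27 Rabs above 0 but no higher than the limit in any library, 5 were tested there, so most higher calls could not recur. The 6 lower calls became 3 without tie1 Homo replicate 2, of which 2 (rab13 and rab35b) were among the 6 and rab11bb was not. They became 0 without tie1 WT/Het replicate 1, where the 6 genes had limma adjusted p-values from 0.0942 for rab18b to 0.402 for rab1a, and 11 without tie1 Homo replicate 1. Most of the 24 higher calls were lost when either mutant library or tie1 WT/Het replicate 1 was left out. Without tie1 WT/Het replicate 2 every higher call was kept and others joined them. In that fit rab1a, rab5c and rab13 were no longer called lower, whereas rab34a was. Over all genes more were also called higher there, and fewer lower, than with all libraries. The calls over all genes moved too: the 1255 lower calls became 825 without tie1 Homo replicate 2, 66 without tie1 WT/Het replicate 1 and 1762 without tie1 Homo replicate 1, and the 12618 higher calls became 521, 532 and 1827.

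**Figure D2:**
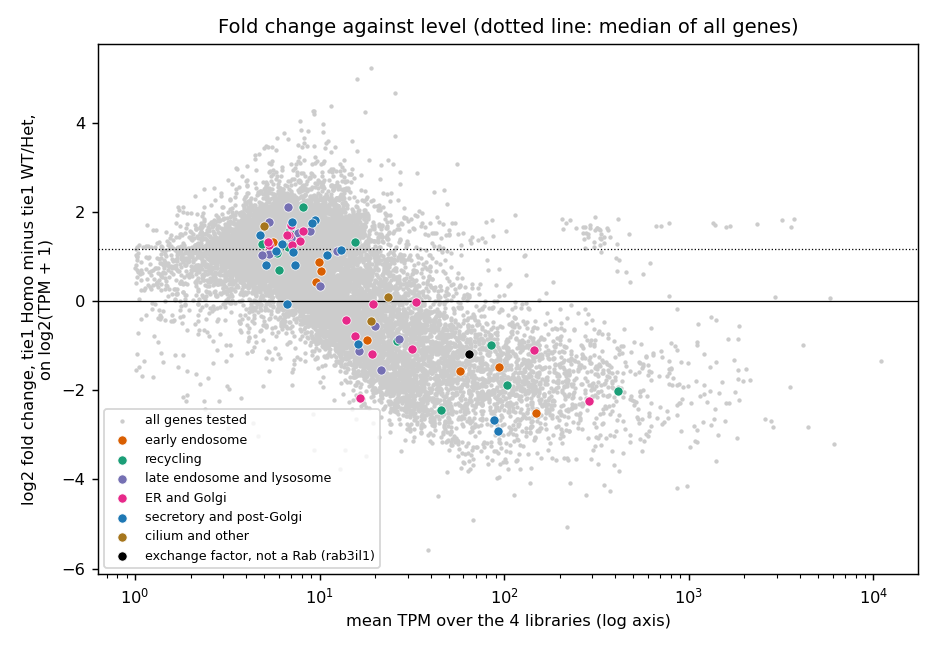
Log2 fold change (tie1 Homo minus tie1 WT/Het, on log2(TPM + 1)) against mean TPM (log axis) for all 28301 genes tested in grey and for the 70 members tested, coloured by role. Members with a mean of at least 50 TPM lie below 0 and most members with a mean under 10 TPM lie near the dotted line at the median of all genes, 1.17.

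Genes were divided by their mean over the 4 libraries, which a gene can pass through 1 group alone. Of the 10 Rabs with a mean of at least 50 TPM, rab5ab, rab10, rab13 and rab14 had mutant means of 31.9, 35.2, 23.5 and 47.4 TPM, so their direction is partly set by this division and is given as a description. All 10 Rabs with a mean of at least 50 TPM had a negative fold change, beside 93.1% of the 1788 genes at that level, but 2 of these 10 (rab2a and rab11ba) were positive under quantile normalization. Of the 10, 4 were called lower (33.0% of all genes at that level) and none higher (0.168%), and for 9 both mutant values were below both sibling values (76.0% of all genes at that level), while none was separated upwards (4.31%). For 8 of the 10 this separation was at least 2-fold (70.4%), and for none upwards (3.75%). Their median log2 fold change was -1.94, against -1.67 for all genes at that level. Of the 23 Rabs with a mean from 10 to 50 TPM, 2 were called lower (10.3%) and none higher (12.7%). In this class 16 of 23 had a negative fold change (56.2%), 8 were separated downwards (31.3%) and 1 upwards (22.8%), and with at least a 2-fold change these were 4 (22.4%) and 1 (18.1%). Of the 36 Rabs with a mean under 10 TPM, 24 were called higher (58.2%) and none lower (0.152%). Of these 36, 31 were separated upwards (84.3%) and none downwards (0.541%), 30 upwards (73.5%) and none downwards (0.202%) by at least 2-fold, and 1 had a negative fold change (2.97%). They had a median log2 fold change of 1.35 against 1.31 for all genes at that level.

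Early endosomal Rabs come first on the inward route. Rab5 organises the fusion of endocytic vesicles with early endosomes, and zebrafish have 4 Rab5 genes in these tables. The most abundant was rab5c, with 228 and 229.9 TPM in sibling libraries against 125 and 12.2 TPM in mutant ones. The sibling values differed little, while the mutant libraries lay far apart, and replicate 2 was under its background limit. Expression of rab5c fell with a log2 fold change of -2.50 ± 0.93 (SE, adjusted p-value 0.026 by limma). Without tie1 Homo replicate 2 its log2 fold change was -0.87 and the limma adjusted p-value 0.316. The call was also lost without tie1 WT/Het replicate 1 (0.231) and without replicate 2 of the same group (0.144).

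The paralogue rab5aa had 134 and 113 TPM in sibling libraries against 108 and 17.6 TPM in mutant ones. Mutant replicate 1 was thus just under the lower sibling. For rab5ab the values were 79.7 and 88.2 TPM in sibling libraries against 48.0 and 15.8 TPM in mutant ones, and for rab5b 26.5 and 20.6 against 9.72 and 15.5 TPM. The groups did not overlap for any of these 3 genes, but none was called (log2 fold changes -1.46, -1.56 and -0.87, limma adjusted p-values 0.155, 0.111 and 0.286). Together the 4 Rab5 genes summed to 469 and 452 TPM in the siblings, 291 TPM in replicate 1 of the mutants and 61.1 TPM in their replicate 2. Within this sum rab5c took 48.8% and 50.9% in the siblings and 43.0% and 19.9% in the mutants. After the median of the background genes was taken off each library, its shares were 49.2%, 51.8%, 45.5% and 6.03%. In mutant replicate 2 all 4 Rab5 genes were under the limit of 19.0 TPM, so the shares in that library are ratios of values at background level.

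The other early endosomal Rabs were close to the background limits. RAB21, which guides integrin uptake in mammalian cells, had 10.5 and 3.59 TPM in sibling libraries against 15.6 and 9.85 TPM in mutant ones. For rab22a, a Rab5 relative, the values were 10.03 and 6.05 against 8.88 and 13.2 TPM, and the groups overlapped for both genes. The gene rab20, chosen after its values were seen, had replicates far apart in each group, at 2.099 and 14.5 TPM in sibling libraries against 5.14 and 18.8 TPM in mutant ones. RAB31 was called higher (log2 change 1.33 ± 0.53 SE, adjusted p-value 0.0326 by limma) with 1.74 and 3.94 TPM against 7.05 and 9.67 TPM, all under the limits. Of the 8 early endosomal Rabs, 1 was called lower and 1 higher (12.5% each, beside 4.43% and 44.6% of all genes).

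**Figure D3:**
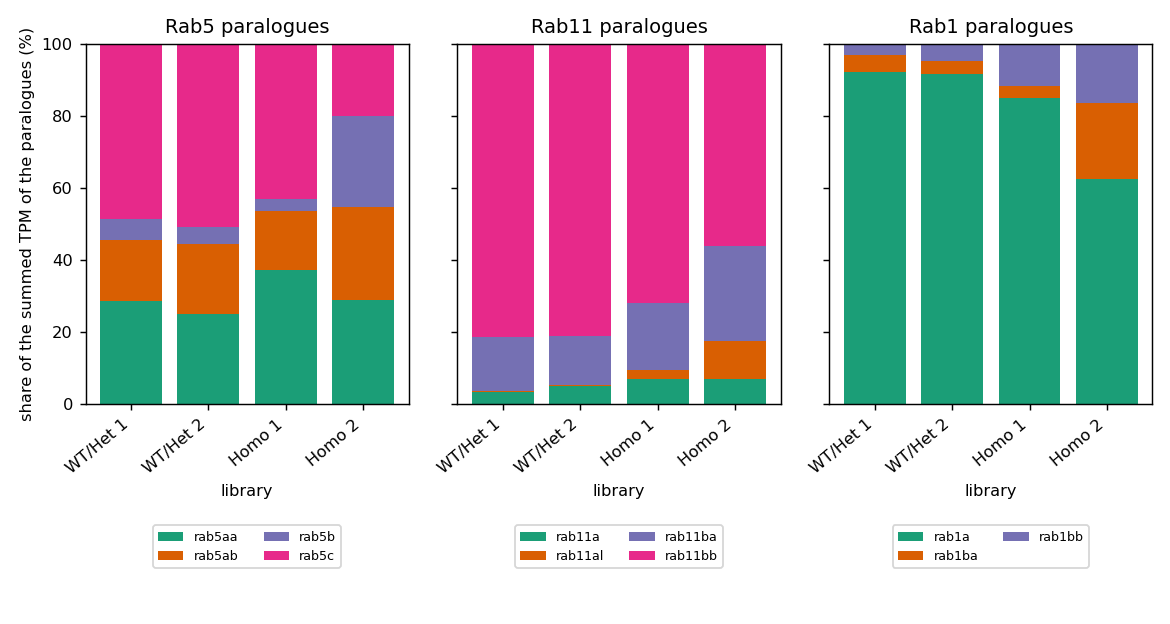
Share (%) of the summed TPM of the Rab5, Rab11 and Rab1 paralogues held by each gene in each of the 4 libraries (stacked bars from 0 to 100%). rab11bb holds over 81% of the Rab11 sum in both siblings and 71.9% and 56.0% in the mutants, and rab5c holds 19.9% of the Rab5 sum in mutant replicate 2.

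Recycling Rabs return internalised receptors and junction proteins to the surface, and one of them was the most abundant Rab of these cells. This gene, rab11bb, had 647 and 651 TPM in sibling libraries against 256 and 101 TPM in mutant ones. Its mutant mean was 3.64-fold lower, with no overlap between groups. The log2 fold change of -2.01 (SE 0.95) was not called (limma adjusted p-value 0.0637). It was called without tie1 Homo replicate 1 (limma adjusted p-value 1.63e-10), where a lone mutant library is assumed to vary like the siblings, and without tie1 Homo replicate 2 (0.0122).

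Its paralogue rab11ba had 118 and 107 TPM in sibling libraries against 66.7 and 47.9 TPM in mutant ones, the most even mutant pair among the Rab5, Rab11 and Rab1 genes above 50 TPM. Its log2 fold change was -0.98 ± 0.92 (SE, adjusted p-value 0.351 by limma), and 0.35 under quantile normalization. For rab11a, 27.2 and 40.6 TPM in sibling libraries stood against 24.4 and 12.5 TPM in mutant ones. The fourth paralogue, rab11al, was under the limit in every library with 1.99 and 2.52 TPM in sibling libraries against 9.16 and 18.8 TPM in mutant ones, and was called higher (log2 change 2.13 ± 0.54 SE, adjusted p-value 0.00434 by limma). The Rab11 sum was 794 and 802 TPM in sibling libraries against 356.5 and 180.03 TPM in mutant ones. The share of rab11bb in this sum was 81.5% and 81.2% in the siblings and 71.9% and 56.0% in the mutants, or 82.1%, 82.2%, 76.9% and 66.3% after the background was taken off. Both mutant shares were below both sibling shares by either measure.

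Rab14 carries cargo between the Golgi, endosomes and the surface. Its gene rab14 had 187 and 130.1 TPM in sibling libraries against 69.4 and 25.3 TPM in mutant ones, without overlap. It was not called (log2 change -1.87 ± 0.92 SE, adjusted p-value 0.0733 by limma). Rab35 directs fast recycling at the plasma membrane and acts on cadherin traffic in mammalian cells. One row named for it, RAB35_(2_of_2), lay outside the member rule. That row had 4.51 and 15.4 TPM in sibling libraries against 7.66 and 14.7 TPM in mutant ones, with overlap. The member gene rab35b fell from sibling values of 96.9 and 57.9 TPM to mutant values of 11.8 and 14.2 TPM, both under the limits. The mutant libraries lay close together, and the log2 fold change was -2.45 ± 0.82 (SE, adjusted p-value 0.0189 by limma). The call held without tie1 WT/Het replicate 2, without tie1 Homo replicate 1 and without tie1 Homo replicate 2 (adjusted p-values 0.0251, 0.0189 and 0.0214 in limma) but not without tie1 WT/Het replicate 1 (0.173).

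The fast recycling Rab4 genes were at background level. The gene rab4a had 2.68 and 3.17 TPM in sibling libraries against 10.2 and 11.6 TPM in mutant ones, all under the limits, and was called higher (log2 change 1.60 ± 0.54 SE, adjusted p-value 0.0195 by limma). For rab4b the values were 2.05 and 5.81 against 8.69 and 10.5 TPM (limma adjusted p-value 0.0516). The endosomal Rab gene rab15, also picked with its values in view, was separated upwards, at 12.4 and 4.79 TPM in sibling libraries against 29.9 and 15.1 TPM in mutant ones, and was not called (log2 change 1.34 ± 0.68 SE, adjusted p-value 0.0791 by limma). Of the 12 recycling Rabs, 1 was called lower (4.43% of all genes) and 3 higher (44.6% of all genes), the 3 being rab11al, rab4a and rab25a.

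Late endosomal and lysosomal Rabs summed to 208 and 111 TPM in sibling libraries against 155 and 164 TPM in mutant ones. As shares of all listed TPM, which was lower in the mutants, these were 0.0256% and 0.015% against 0.0257% and 0.034%. The early endosomal Rabs summed to 493 and 480 TPM against 327 and 113 TPM, so that the late class was the lower of both in 3 libraries and the higher in mutant replicate 2. In that library none of the 14 late or 8 early Rabs was above the limit. The order there thus compares sums of background-level values over unequal numbers of genes. Rab7 drives the step from late endosomes to lysosomes. Its gene rab7 had 35.4 and 28.8 TPM in sibling libraries against 8.10 and 13.2 TPM in mutant ones, where both values were under the limits. The groups did not overlap, but the log2 fold change of -1.53 (SE 0.73) was not called (limma adjusted p-value 0.0661). RAB7B, with 2.12 and 6.31 TPM in sibling libraries against 11.9 and 14.9 TPM in mutant ones, was under the limits and called higher (log2 change 1.58 ± 0.57 SE, adjusted p-value 0.0238 by limma).

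Rab9 returns mannose 6-phosphate receptors from late endosomes to the Golgi. Its gene rab9a had 47.4 and 6.71 TPM in sibling libraries against 8.73 and 16.6 TPM in mutant ones, so the sibling libraries lay farther apart than the mutants. Its log2 fold change was -0.56 with all libraries and 0.76 without tie1 WT/Het replicate 1, and neither was called (limma adjusted p-values 0.485 and 0.41). The paralogue rab9b had 3.28 and 2.69 TPM in sibling libraries against 5.39 and 9.85 TPM in mutant ones, all under the limits.

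Rab32 and Rab38 act on lysosome-related organelles such as melanosomes. The gene rab32a had 53.8 and 16.4 TPM in sibling libraries against 27.3 and 9.36 TPM in mutant ones, with overlap (log2 change -0.85 ± 0.76 SE, adjusted p-value 0.328 by limma). Its relatives rab32b, RAB38 and rab38b, given to complete the family though outside the naming rule, were between 1.52 and 6.22 TPM in the siblings and between 5.17 and 12.0 TPM in the mutants, under the limits. Of 10 pigment cell markers, 2 and 3 were above the limit in the siblings and none in the mutants, and they summed to 56.6 to 69.7 TPM in the siblings and 65.3 to 106 TPM in the mutants. The gene rab34a, which was picked because 1 sibling library was high, had 40.2 and 6.31 TPM in sibling libraries against 2.87 and 15.8 TPM in mutant ones. Of the 14 late endosomal and lysosomal Rabs, none was called lower (4.43% of all genes) and 6, or 42.9%, were called higher, close to the 44.6% of all genes.

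Rabs of the endoplasmic reticulum and Golgi held the second most abundant member by the mean over the 4 libraries, although in mutant replicate 2 rab11bb, rab43, rab11ba and rab2a were all above it. Rab1 controls the transport of vesicles from the endoplasmic reticulum to the Golgi. Its gene rab1a had 513 and 391 TPM in sibling libraries against 207 and 42.6 TPM in mutant ones, so that the groups did not overlap. Expression fell with a log2 fold change of -2.24 ± 0.95 (SE, adjusted p-value 0.0427 by limma). The call was lost without tie1 Homo replicate 2 (limma adjusted p-value 0.115), without tie1 WT/Het replicate 1 (0.402) and without tie1 WT/Het replicate 2 (0.272). The adjusted p-value was also above 0.05 with a pseudocount of 5 (0.0531), with no filter on low values (0.0507) and with the listed rows rescaled to 1 sum (0.0513).

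The paralogue rab1bb had 17.4 and 20.7 TPM in sibling libraries against 28.9 and 11.2 TPM in mutant ones, and rab1ba had 25.1 and 14.8 against 8.05 and 14.4 TPM. Neither was called (limma adjusted p-values 0.942 and 0.322). The share of rab1a in the Rab1 sum was 92.3% and 91.7% in the siblings and 84.9% and 62.4% in the mutants. After the background was taken off, these shares were 93.1%, 93.2%, 90.7% and 90.7%. By that measure the share in mutant replicate 2 equalled that in replicate 1 to the digits shown.

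Rab2 acts with Rab1 at the Golgi. Its gene rab2a had 158 and 216 TPM in sibling libraries against 163 and 44.8 TPM in mutant ones, so that mutant replicate 1 lay within the sibling range. Its log2 fold change was -1.10 ± 0.94 (SE, adjusted p-value 0.305 by limma), and 0.24 under quantile normalization. Among the 10 abundant Rabs it was the only member with overlapping groups. Rab6 serves the return of vesicles to and within the Golgi. For rab6a the values were 50.2 and 35.5 TPM in sibling libraries against 26.3 and 14.5 TPM in mutant ones, without overlap (log2 change -1.07 ± 0.80 SE, adjusted p-value 0.24 by limma). Its paralogue rab6ba was under the limits in the mutants at 10.7 and 12.6 TPM and was called higher than the 2.99 and 5.08 TPM of the siblings (log2 change 1.35 ± 0.56 SE, adjusted p-value 0.0387 by limma).

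Rab18 acts at the endoplasmic reticulum and on lipid droplets. The gene rab18b fell from sibling values of 31.7 and 23.2 TPM to mutant values of 3.81 and 7.06 TPM, a 5.05-fold lower mean (log2 change -2.17 ± 0.66 SE, adjusted p-value 0.0138 by limma). Both mutant values were below the median of the background genes, which was 8.61 and 11.2 TPM. The call held without tie1 WT/Het replicate 2 (limma adjusted p-value 0.0128) but not without tie1 WT/Het replicate 1 (0.0942), without tie1 Homo replicate 1 (0.0958) or without tie1 Homo replicate 2 (0.0574). The paralogue rab18a had 13.0 and 42.3 TPM in sibling libraries against 6.50 and 14.6 TPM in mutant ones, with overlap (limma adjusted p-value 0.136). The Golgi Rab gene rab43 had 31.7 and 31.97 TPM in sibling libraries against 19.6 and 50.1 TPM in mutant ones (log2 change -0.02 ± 0.82 SE, adjusted p-value 0.986 by limma). It was singled out after its values were seen, and it was the only one of the 7 Rabs above the limit in all 4 libraries whose value in mutant replicate 2 exceeded both siblings. Of the 17 Rabs of this class, 2 were called lower (11.8%, beside 4.43% of all genes) and 8 higher (47.1%, beside 44.6%).

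Among the secretory and post-Golgi Rabs, Rab10 and Rab8 guide vesicles from the Golgi and endosomes to the plasma membrane. Expression of rab10 fell from sibling values of 160.2 and 139 TPM to mutant values of 65.4 and 4.95 TPM (log2 change -2.92 ± 0.88 SE, adjusted p-value 0.0131 by limma). Mutant replicate 2 was under its limit and below the background median of 11.2 TPM. Without tie1 Homo replicate 2 the log2 fold change was -1.18 (limma adjusted p-value 0.282), and without tie1 WT/Het replicate 1 the adjusted p-value was 0.156.

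Rab13 carries proteins to the surface and to tight junctions of epithelial and endothelial cells. Its gene rab13 fell from sibling values of 167 and 138 TPM to mutant values of 26.7 and 20.3 TPM, a 6.50-fold lower mean, and remained above the limit in both mutant libraries. Both mutant libraries were low and lay close together, but near the limits, at 1.86 times the limit in replicate 1 and 1.07 times in replicate 2. The log2 fold change was -2.66 ± 0.89 (SE, adjusted p-value 0.0194 by limma), beside a median of -1.67 over all genes with a mean of at least 50 TPM. It was -2.47 without tie1 Homo replicate 2 (limma adjusted p-value 0.00719) and -2.84 without tie1 Homo replicate 1 (2.37e-04). The call was not reached without tie1 WT/Het replicate 1 (0.183) or without tie1 WT/Het replicate 2 (0.0583). Under the median of ratios the log2 fold change was -4.00 and under quantile normalization -1.60, with limma adjusted p-values of 0.18 and 0.488.

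The Rab8 genes were lower in level. For rab8b the values were 13.5 and 29.96 TPM in sibling libraries against 7.06 and 13.6 TPM in mutant ones, and for rab8a 6.13 and 3.71 against 6.36 and 13.0 TPM. Neither was called (limma adjusted p-values 0.215 and 0.2). RAB27A directs the release of Weibel-Palade bodies, the storage granules of von Willebrand factor, in human endothelial cells. Here rab27a had 12.5 and 3.44 TPM in sibling libraries against 26.3 and 9.95 TPM in mutant ones, with overlap (log2 change 1.16 ± 0.64 SE, adjusted p-value 0.107 by limma), and RAB27B was under the limits throughout. The row RAB27A_(2_of_2), outside the member rule, had 3.39 and 5.13 TPM in sibling libraries against 18.3 and 4.21 TPM in mutant ones. It was above the limit in mutant replicate 1 alone.

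The Rab3 genes, known for synaptic vesicles and regulated secretion, summed to 10.7 and 41.8 TPM over 6 genes in the siblings and to 54.2 and 71.7 TPM in the mutants. None was above the limit in a mutant library. The gene rab3aa had 1.52 and 16.5 TPM against 10.7 and 14.96 TPM, rab3b 1.44 and 6.08 against 7.98 and 5.06 TPM, and rab3da 2.49 and 3.96 against 8.20 and 10.2 TPM. Only rab3da of these 3 was called, as higher (log2 change 1.29 ± 0.54 SE, adjusted p-value 0.0381 by limma). The 12 neural markers summed to 65.4 and 73.1 TPM in the siblings and to 92.1 and 127 TPM in the mutants, with 2 above the limit in each sibling library, none in the mutants, and gap43 at 0 in all 4. Of the 15 secretory and post-Golgi Rabs tested, 2 were called lower (13.3%, beside 4.43% of all genes) and 5 higher (33.3%, beside 44.6%). Of the 3 remaining Rabs tested, which act at cilia or in other roles, 1 was called higher (33.3%, beside 44.6%) and none lower (beside 4.43%). The gene called was rab23, which was under the limit in all 4 libraries.

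The 2 mutant libraries departed from the siblings to unequal extents. In mutant replicate 1 the 10 abundant Rabs had from 17.5% (rab13) to 87.4% (rab5aa) of the sibling mean, with a median of 50.2%. In mutant replicate 2 they had from 3.31% (rab10) to 42.6% (rab11ba), with a median of 14.9%. Over all 1788 genes with a mean of at least 50 TPM, the medians were 53.7% and 18.7%. The medians of the Rabs thus lay near those of all genes at this level in both libraries. The exchange factor gene rab3il1, a member outside the naming rule, had a mean of 64.7 TPM over the 4 libraries. Its values were 73.2 and 71.8 TPM in sibling libraries against 105 and 8.75 TPM in mutant ones. Mutant replicate 1 was thus above both siblings and replicate 2 below both.

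**Figure D4:**
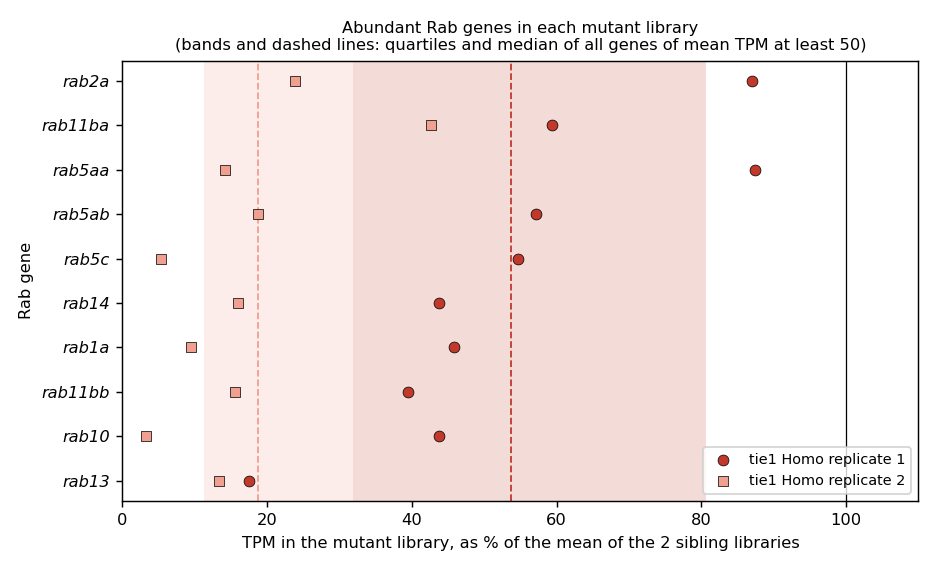
TPM of the 10 Rab genes with a mean of at least 50 TPM in each mutant library, as a percentage of the mean of the 2 sibling libraries. Bands and dashed lines give the quartiles and median of all 1788 genes at that level, 53.7% in replicate 1 and 18.7% in replicate 2. Only rab13 is at a similar low percentage in both libraries, 17.5% and 13.3%. Its value in replicate 2 is 1.07 times the background limit.

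A set of 27 Rabs was above 0 but no higher than the limit in any library. Their median TPM was 2.09 and 3.54 in the siblings and 8.57 and 10.5 in the mutants, where the background genes had 2.28, 3.69, 8.61 and 11.2 TPM. All 27 had a higher mean in the mutants, and 21 were called higher, with a median log2 fold change of 1.48. The background genes had a median log2 fold change of 1.47, with all 278 of those tested higher and 204 called. Under the median of ratios 22 of the 27 were higher and 5 lower, under quantile normalization 18 and 9, and none was called. The 27 were chosen by limits that came from the background genes and were higher in the mutants. Their direction and their nearness to the background genes are thus partly set by this choice, and both are given as a description.

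**Figure D5:**
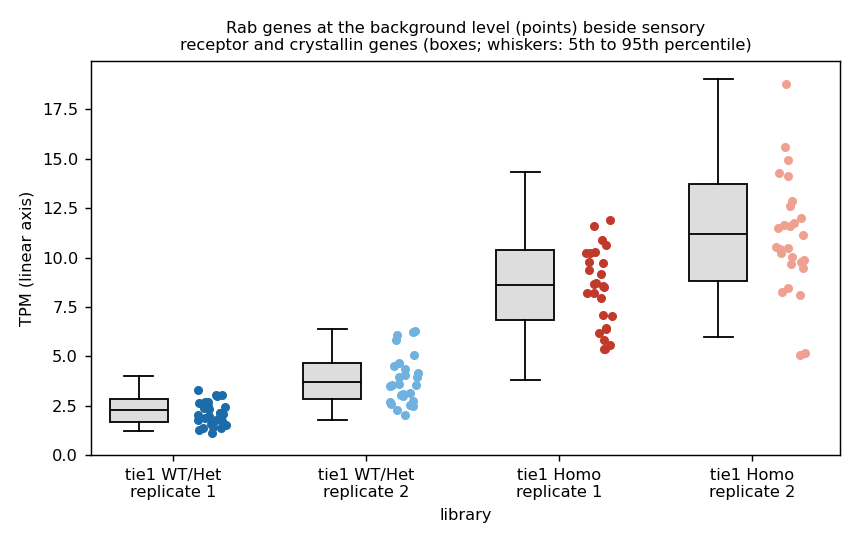
TPM (linear axis) of the 27 Rab genes no higher than the background limit in any library (points) beside the 279 sensory receptor and lens crystallin genes (boxes, with whiskers from the 5th to the 95th percentile). Points and boxes move up together from the siblings to the mutants, and the Rab medians of 2.09, 3.54, 8.57 and 10.5 TPM lie close to the box medians. The Rabs shown were chosen by limits taken from the same background genes, so this nearness is partly set by the choice.

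Rabs depend on proteins that load, extract, activate and read them. Of 173 such genes listed by function, 153 were found under their names and were not members, and all were tested. In the mutants 7 were called lower (4.58%, beside 4.43% of all genes) and 56 higher (36.6%, beside 44.6%). All 7 lower genes exceeded the limit in each sibling library, and none of the 56 higher genes was above it in both mutant libraries. The median log2 fold change was 0.88. No regulator was called under the median of ratios, quantile normalization or background subtraction. Fewer regulators were called lower when either sibling library or tie1 Homo replicate 2 was left out. Over all genes, too, fewer were called lower in each of these fits. The number of higher calls dropped far below 56 when either mutant library or tie1 WT/Het replicate 1 was left out. It did not drop without tie1 WT/Het replicate 2. The higher calls over all genes went the same way in each of these fits.

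Among the loading and extraction proteins, gdi2, which extracts GDP-bound Rabs from membranes, fell from sibling values of 165 and 136 TPM to mutant values of 60.4 and 15.5 TPM (log2 change -2.24 ± 0.91 SE, adjusted p-value 0.0345 by limma). The Golgi protein gene yipf4 fell from 64.6 and 49.5 to 12.3 and 14.5 TPM (-2.01, limma adjusted p-value 0.0327). Both mutant values of yipf4 were under the limits, as was that of gdi2 in mutant replicate 2. Of the 9 genes of this group 2 were lower and 1 higher. Among exchange factors, trappc1, a subunit of the TRAPP complex that activates Rab1, fell from 276 and 169 to 25.001 and 19.6 TPM (log2 change -3.23 ± 0.91 SE, adjusted p-value 0.00891 by limma). Its mutant values lay close together but near the limits, at 1.74 times the limit in replicate 1 and 1.03 times in replicate 2. It was the only 1 of 38 exchange factor genes called lower, with 14 higher. The shares of all genes to set beside the counts of each regulator group are 4.43% for lower and 44.6% for higher.

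Among the 33 genes of GTPase-activating and related TBC-domain proteins, tbc1d23 was the only one called lower, from 52.4 and 58.4 to 12.8 and 13.3 TPM (log2 fold change -2.001, limma adjusted p-value 0.0326), and 14 were called higher. Among 73 effectors and partner proteins 3 were lower and 27 higher. The 3 were ehd1b, an ATPase of recycling endosomes, from 215 and 134 to 51.7 and 20.1 TPM, uso1, a Rab1-binding tether, from 63.3 and 32.7 to 14.0 and 11.2 TPM, and vps35, a retromer subunit, from 30.7 and 31.2 to 7.15 and 11.7 TPM. Their limma adjusted p-values were 0.03, 0.0463 and 0.0462. Both mutant values of tbc1d23, uso1 and vps35 were under the limits. Those of ehd1b were above them, at 1.06 times the limit in replicate 2.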

How the data were processed

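Each library came as its own table of gene-level TPM values, deposited by the authors and so named per the file headers. Trim Galore 0.6.6, cutadapt 2.8, HISAT2 2.2.1, SAMtools 1.7, StringTie 2.1.4 and the build GRCz11 are listed per the submitters' processing notes, whereas the annotation, filters and handling of reads with several matches are not given in the sources used here. TPM keeps no read depth, so depth is unknown and no counting interval was computed. The listed rows summed to 813042 and 736606 TPM in the siblings and to 602394 and 481065 TPM in the mutants. Sums of TPM given above thus stand on unequal totals.

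The comparison of groups used limma 3.58.1 (run in R 4.3.3) and values of log2(TPM + 1) for the 28301 genes with a mean of at least 1 TPM, with group as the only term, eBayes with an intensity trend, two-sided tests and Benjamini-Hochberg adjustment over all genes. Fold changes understate those of low genes. Each gene had 2 residual degrees of freedom, but in this fit the prior alone set the variance. The script was tested on simulated data. The genes named were 37 canonical Rabs, whatever their values, any other called member above the limit in both libraries of a group (0 were found), and up to 12 called regulators above it (7 were found). The canonical list held 39 names, of which rab35a and rab1aa were not found. A gene named outside this rule is said to be so, or stands in a count or in a list of the Rabs above the limit. The members, lists, roles and the marker genes were chosen with earlier results of these data known.

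Alternatives were pseudocounts of 0.1 and 5, no filter and a filter at 5 TPM, eBayes without trend or with robust moderation, median-of-ratios, quantile, sum and background scaling, leaving out each library, and a replicate block.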

Additional observations from a re-analysis of the deposited data

How the results depend on the processing

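The member counts depended on scaling and on single libraries. The 24 higher and 6 lower calls were 0 and 0 under the median of ratios, quantile normalization and background subtraction. So were the 56 and 7 calls of regulators and the calls over all genes. After background subtraction 46 members were tested, against 70 in the other fits named. At an unadjusted limma p-value under 0.05 these fits had 3, 2 and 0 members higher and 17, 3 and 10 lower. The matching shares of all genes are not given here, so these counts cannot be read as particular to Rabs. With eBayes without trend, 10 members and 11 regulators were called lower, beside 1986 of all 28301 genes. With the listed rows rescaled to 1 sum, 2 regulators were called lower, beside 706 of all 28301 genes. Members separated with at least a 2-fold change (31 higher, 12 lower) were 12 higher with a pseudocount of 5, 0 higher and 26 lower under the median of ratios, 5 higher under quantile normalization, and 5 higher and 21 lower after background subtraction. The matching counts over all genes under these alternatives are not given here. Leaving out each library gave 0 to 31 members called higher and 0 to 11 lower, 21 to 35 separated higher and 13 to 19 separated lower, and 0 to 63 regulators called higher and 0 to 6 lower. A group left with 1 library is assumed to vary like the other. Same-numbered libraries share only a number: across 28301 genes their deviations correlated with r = 0.13, and 2 pairs cannot show a pairing. With the replicate block 3 members were called lower (rab13, rab18b and rab35b, all among the 6) and 1 regulator, beside 666 of all 28301 genes. In that fit 28 members and 67 regulators were called higher, beside 15263 of all genes.

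Of 547 values of named members under an alternative, 23 changed sign, and 1 of these was of a gene called with all libraries. Under the median of ratios the log2 fold changes were -0.36 for RAB21, -0.83 for rab22a, -0.085 for rab9b, -0.41 for rab8a, -0.094 for rab27a, -0.11 for rab3aa and -0.24 for rab3b. Under quantile normalization they were -0.23 for rab22a, -0.02 for rab4b, 0.35 for rab11ba, -0.20 for rab9b, 0.24 for rab2a, -0.13 for rab8a, -0.39 for rab3b and -0.001 for rab3da. After background subtraction they were -0.10 for RAB21, -1.46 for rab22a and -0.40 for rab8a. For rab1bb the value was 0.43 with rescaled sums and from -0.71 (without tie1 Homo replicate 1) to 0.58 (without tie1 Homo replicate 2) when a library was left out, with 0.05 without tie1 WT/Het replicate 2. Leaving out a library gave -1.89 to 0.76 for rab9a and -0.36 to 2.44 for rab3aa, where the sign changed without tie1 WT/Het replicate 1. The cause was not tested. Depth is unknown, so no limit from counting could be set for genes near background.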

Other observations

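A few rows named for Rabs or Rab regulators lay outside the member rule or the naming rule and were picked after their values were seen. The row for rab3gap2, a subunit of a Rab3 GTPase-activating and Rab18 exchange complex, had 1.24 and 3.22 TPM in sibling libraries against 39.9 and 8.76 TPM in mutant ones, so that mutant replicate 1 alone was above its background limit, and it was called higher (limma adjusted p-value 3.28e-04). The effector gene rab11fip1b, whose product binds Rab11, had 169 and 201 TPM in sibling libraries against 174 and 32.3 TPM in mutant ones, with mutant replicate 1 inside the sibling range. The retromer subunit gene vps26a had 96.2 and 86.9 TPM in sibling libraries against 139 and 73.8 TPM in mutant ones, unlike vps35, and the TRAPP subunit gene trappc4 had 93.2 and 88.1 against 272 and 69.4 TPM, unlike trappc1. For both vps26a and trappc4, mutant replicate 2 was below both siblings. Neither vps26a (limma adjusted p-value 0.895) nor trappc4 (0.585) was called. Other subunits varied: for vps29 and trappc3 both mutant values were below both sibling values, while trappc5 overlapped. The difference between subunits of a complex was not tested.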
